A study of Homo sapiens with 18 samples.

Results

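The Aurora kinases, survivin and the proteins of the central spindle carry a cell from the assembly of its spindle to its division, and the transcripts of 10 such genes were followed in MSTO-211H cells exposed to piroxicam and cisplatin. The genes are AURKA, AURKB, BIRC5, TPX2, ASPM, DLGAP5, RACGAP1, PRC1, ECT2 and ANLN. They were taken as every probe set whose single gene symbol in the platform annotation is a listed gene, whatever its values. Of the 22283 probe sets on the array, 13 were found in this way, for 9 of the 10 genes. ANLN was matched to no probe set and is not analysed here. Of the 13 probe sets, 9 were among the 3057 that passed a filter on variation and signal and were tested, and they stand for 8 genes.

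All groups come from 1 established line grown in culture, MSTO-211H, which was derived from a human malignant mesothelioma. The groups were cells given both drugs (P/C), 760 µM piroxicam alone (P), 4.5 µg/mL cisplatin alone (C) or no drug (untreated). Piroxicam inhibits cyclooxygenases and is used against inflammation, and cisplatin binds and crosslinks DNA. RNA taken after 24 h was measured on 2 arrays of P/C, 3 of P, 3 of C and 2 of untreated cells, and RNA taken after 8 h on 2 arrays of each group. The study describes its replicates as biological. Each of the treatments at a given time was set against the same 2 untreated arrays, so their comparisons are not independent. Values are deposited log2 signals, on which a difference of 1 is a change by a factor of 2. Calls needed an adjusted p of 0.05 or less together with a log2 fold change of 1 or more in either direction.

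Aurora A, activated and brought to the microtubules by TPX2, drives the maturation of the spindle poles, and ASPM and DLGAP5 act at the poles and on the kinetochore fibres of the same spindle. Aurora B works with survivin (BIRC5), INCENP and borealin as the chromosomal passenger complex, which corrects chromosome attachments and then moves to the midzone. There PRC1 bundles antiparallel microtubules, RACGAP1 and KIF23 form centralspindlin, ECT2 activates the RHOA GTPase and ANLN scaffolds the contractile ring. In dividing cells these genes are transcribed mostly in G2 and M phase, and their level in a culture follows the share of cells in those phases. In such bulk samples fewer cells in these phases and less RNA per cell cannot be told apart.

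The cells carried KRT8, KRT18 and VIM at a signal of at least 100 on all 18 arrays, while the other 9 of 12 mesothelial markers looked up, MSLN, CALB2 and WT1 among them, reached it on none. Of 12 markers of blood, endothelial cells and fibroblasts with a probe set, 11 reached it on none, and the fibroblast collagen COL3A1 did on 4 arrays. COL3A1 had log2 signals of 7.48 and 4.61 in P/C, 4.44, 3.44 and 4.12 in P, 6.71, 5.06 and 6.89 in C and 7.69 and 5.01 in untreated cells at 24 h, so it was high on P/C replicate 1, C replicates 1 and 3 and untreated replicate 1. The summed signal of the other 11 markers was 48.1 to 49.8 in P/C, 50.3 to 56.1 in P, 50.3 to 58.1 in C and 50.8 on both arrays of untreated cells. Among the 24 h arrays, P/C replicate 1 resembled C replicate 3 most (r = 0.677 over the tested probe sets that are not members) and not the other P/C array (r = −0.10). C replicate 1 resembled untreated replicate 1 most (r = 0.473), with at most r = 0.033 to its own group. Whether these arrays were exchanged or mixed, which would change what their values stand for, was not tested. The P/C values at 24 h are given below also without P/C replicate 1 and without P/C replicate 3.

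Promoters of G2 and M phase genes often carry a pair of short elements, CHR and CCAAT, through which their transcription is timed, so those of the called genes with a RefSeq window are shown. RefSeq windows of GRCh38.p14, from 250 bases before to 50 after the start, were matched for 6 of the 10 genes (8 windows), namely ASPM, ECT2, ANLN, DLGAP5, PRC1 and AURKB. Below are the 150 bases before the start of PRC1 (chr15:90994536-90994685, minus strand), DLGAP5 (chr14:55191586-55191735, minus strand), ASPM (chr1:197146670-197146819, minus strand) and ECT2 (chr3:172750576-172750725, plus strand), in the direction of transcription, with CHR words (TTTGAA or TTCGAA) and CCAAT words in capitals on either strand, so that TTCAAA and ATTGG are the same words read on the other strand.
PRC1: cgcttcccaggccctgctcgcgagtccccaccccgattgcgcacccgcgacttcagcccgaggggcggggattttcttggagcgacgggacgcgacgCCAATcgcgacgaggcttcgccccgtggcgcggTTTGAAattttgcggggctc
DLGAP5: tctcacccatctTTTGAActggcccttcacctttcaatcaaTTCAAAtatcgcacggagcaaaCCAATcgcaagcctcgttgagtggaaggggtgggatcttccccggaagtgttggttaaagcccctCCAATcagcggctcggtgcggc
ASPM: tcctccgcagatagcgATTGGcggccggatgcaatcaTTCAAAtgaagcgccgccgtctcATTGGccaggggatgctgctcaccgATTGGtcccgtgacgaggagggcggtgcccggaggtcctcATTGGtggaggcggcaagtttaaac
ECT2: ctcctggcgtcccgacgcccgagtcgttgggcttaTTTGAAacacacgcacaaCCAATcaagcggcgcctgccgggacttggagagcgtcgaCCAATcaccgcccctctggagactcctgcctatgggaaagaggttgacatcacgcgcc
In PRC1 the CCAAT word lies at −53 to −49 and the CHR word at −20 to −15 from the start. DLGAP5 has CHR words from −138 and −109 and, beyond the stretch shown, from +4. ECT2 has them from −115 and +35 in this window, which is 1 of its 2. The 4 CCAAT words of ASPM lie between −134 and −21, all on the opposite strand. In the stretches shown no word overlaps another. A CHR word occurred in 6 of the 8 windows and in 16.4% of all 35116 windows of the table, and a CCAAT word in 6 of 8 and in 34.6%. The windows of AURKB overlap, as do those of ECT2, so the 8 are not independent. The CCAAT word of AURKB lies in both of its windows. The E2F words TTTGGCGC, TTTCCCGC, TTTCGCGC and TTTGCCGC were in 0 of 8 windows and in 3.3% of all. These are matches of letters and say nothing of binding in these cells.

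At 24 h most of the transcripts of the spindle kinase, of survivin and of the central spindle were lower in cells that had received piroxicam, with or without cisplatin. In cells given cisplatin alone 0 of them passed the test, and neither did any other tested probe set (0% of all). P/C cells had 8 of the 9 tested probe sets called lower, for 7 of 8 genes, where 4.22% of all tested probe sets were called lower. In P cells 6 of 9 were called lower, for AURKA, BIRC5, ASPM, DLGAP5, PRC1 and ECT2, where 11.4% of all were. The genes were chosen with earlier results of these data known. The study's list of network genes for P/C already holds ASPM, BIRC5, DLGAP5 (as DLG7), ECT2, PRC1 and RACGAP1. The counts thus describe these genes and are no independent test of them. The median log2 fold change of the 9 probe sets was −1.48 in P/C and −1.16 in P, beside medians of −0.12 and −0.22 over all tested probe sets. C cells had a median of −0.60, beside −0.10 over all. Signs are those of treated minus untreated signals under the submitted labels. For P they are opposite to those in the study's tables for some of these genes. Among them are BIRC5, DLGAP5 (DLG7) and RACGAP1, higher in P there and at −1.51, −1.16 and −0.97 here. The study marks its array results for BIRC5 and DLGAP5 as borne out by real-time PCR in these cells, and those for RACGAP1 as not. Why the signs differ was not tested.

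**Figure D1:**
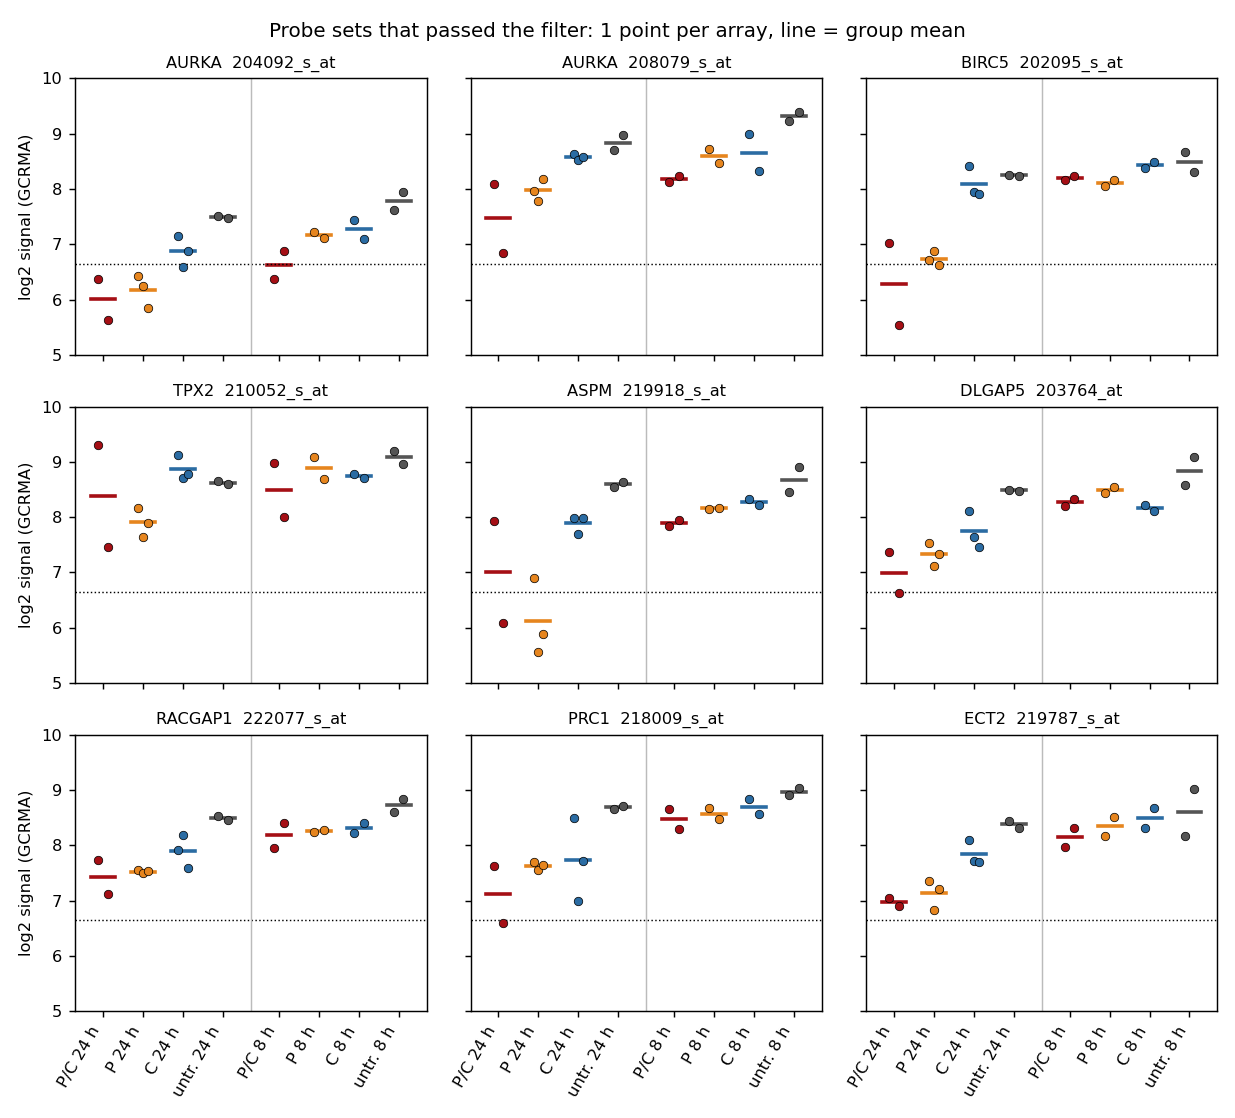
Log2 signal (y axis) of the 9 tested probe sets in every array, by treatment and time (x axis, 24 h left of 8 h); points are arrays, short lines group means and the dotted line a signal of 100. At 24 h the P arrays of all 9 probe sets lie below both untreated arrays, and the upper P/C array of TPX2 lies above them.

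For AURKA, the kinase of the spindle poles, the probe set 204092_s_at had log2 signals of 6.38 and 5.63 in P/C cells (replicates 1 and 3), 6.42, 6.24 and 5.84 in P cells, 7.15, 6.59 and 6.88 in C cells and 7.51 and 7.47 in untreated cells at 24 h. All arrays of the 3 treatments lay below the untreated arrays, and the P/C and P arrays lay below the C arrays too. The log2 fold change was −1.49 (SE 0.29, adjusted p = 0.0108) in P/C, −1.32 (SE 0.26, adjusted p = 0.00246) in P and −0.61 (SE 0.26, not called) in C. The other AURKA probe set tested, 208079_s_at, had 8.10 and 6.84 in P/C, 7.97, 7.78 and 8.18 in P, 8.64, 8.52 and 8.59 in C and 8.70 and 8.97 in untreated cells. It fell by 1.37 (SE 0.32, adjusted p = 0.0218) in P/C, and its −0.86 in P (SE 0.29, adjusted p = 0.0396) missed the limit on the fold. Both probe sets thus put AURKA below the untreated arrays in P/C and P cells, with the lowest level in P/C replicate 3. In P/C the probe set 204092_s_at had −1.86 (adjusted p = 0.00218) without replicate 1 and −1.11 (adjusted p = 0.0795) without replicate 3, and 208079_s_at had −1.99 (adjusted p = 0.000734) without replicate 1 and −0.74 (adjusted p = 0.150) without replicate 3. The third probe set, 208080_at, stayed between 2.10 and 2.82 on all 18 arrays, where the median probe set of an array had 2.72 to 2.83, and gives no measure of the gene.

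TPX2, the activator of Aurora A, was called under none of the treatments. It had log2 signals of 9.31 and 7.46 in P/C, 8.17, 7.65 and 7.90 in P, 9.12, 8.72 and 8.79 in C and 8.65 and 8.61 in untreated cells at 24 h. The P arrays lay below the untreated arrays and the C arrays above them, and the 2 P/C arrays lay on opposite sides. Its log2 fold changes were −0.24 (SE 0.44, adjusted p = 0.738) in P/C, −0.72 (SE 0.40, adjusted p = 0.181) in P and 0.25 (SE 0.40) in C, none of them called. P/C replicate 1 decides the P/C value of TPX2, which was −1.17 (adjusted p = 0.0431) without that array and 0.68 (adjusted p = 0.263) without P/C replicate 3.

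ASPM, which holds microtubules at the spindle poles, had the largest change of the 9 in P cells. Its log2 signals were 7.93 and 6.09 in P/C, 6.89, 5.57 and 5.90 in P, 7.99, 7.69 and 7.98 in C and 8.54 and 8.64 in untreated cells at 24 h. P cells had a 5.55-fold lower signal than untreated cells (log2 fold change −2.47, SE 0.42, adjusted p = 0.00104). P/C cells had −1.58 (SE 0.46, adjusted p = 0.0400), and here the arrays stood far apart, with replicate 1 among the C arrays and replicate 3 among the P arrays. The P/C value of ASPM was −2.50 (adjusted p = 0.00142) without replicate 1 and −0.66 (adjusted p = 0.328) without replicate 3.

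DLGAP5, which stabilises the microtubule fibres at kinetochores, had 7.37 and 6.63 in P/C, 7.53, 7.11 and 7.34 in P, 8.11, 7.65 and 7.47 in C and 8.49 and 8.48 in untreated cells at 24 h. All 8 treated arrays lay below both untreated arrays. The log2 fold change of DLGAP5 was −1.48 (SE 0.27, adjusted p = 0.00925) in P/C and −1.16 (SE 0.25, adjusted p = 0.00405) in P, both called, and −0.74 (SE 0.25) in C, not called. In P/C it was −1.85 (adjusted p = 0.00143) without replicate 1 and −1.12 (adjusted p = 0.0661) without replicate 3.

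For survivin, a subunit of the chromosomal passenger complex, the tested probe set had no overlap between the arrays with and without piroxicam at 24 h. The tested BIRC5 probe set, 202095_s_at, had log2 signals of 7.02 and 5.54 in P/C, 6.71, 6.87 and 6.63 in P, 8.41, 7.94 and 7.91 in C and 8.26 and 8.24 in untreated cells at 24 h. The highest of the 5 arrays with piroxicam was 7.02 and the lowest of the 5 without it was 7.91. Both tested AURKA probe sets and ECT2 had no such overlap either, and the other tested probe sets did overlap. The share of all tested probe sets with this split was not determined. Of all tested probe sets, 42.8% had every P array below both untreated arrays and 30.1% had every P array below every C array. For P/C these shares were 34% and 14.3%, so the parts of this split were common. BIRC5 was 3.92-fold lower in P/C (log2 fold change −1.97, SE 0.34, adjusted p = 0.00794) and 2.85-fold lower in P (−1.51, SE 0.31, adjusted p = 0.00293), while C cells had −0.16 (95% confidence interval of −0.82 to 0.50). It was the 1 probe set of the 9 still called in P/C cells when replicate 3 was left out, at −1.23 (adjusted p = 0.0458), and without replicate 1 it had −2.71 (adjusted p = 4.01e-05).

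The other 2 BIRC5 probe sets and AURKB did not pass the filter, since they reached a signal of 100 on too few arrays. In a fit without the filter, BIRC5 202094_at had −2.18 (SE 0.46, adjusted p = 0.0358) in P/C and −2.24 (SE 0.42, adjusted p = 0.00806) in P, and −0.15 in C. Its log2 signals at 24 h were 3.72 and 2.18 in P/C, 2.66, 3.16 and 2.86 in P, 5.33, 4.96 and 4.66 in C and 5.11 and 5.16 in untreated cells, the same split as in 202095_s_at at a much dimmer level. The P/C and P levels of this probe set lie near the median of an array, so they are close to background and its differences have no exact size. Its P/C value was −1.42 (adjusted p = 0.181) without P/C replicate 3, and its P call was lost without untreated replicate 2 (adjusted p = 0.0847). BIRC5 210334_x_at ranged from 3.91 to 5.57 over all arrays. It had −0.81 (adjusted p = 0.412) in P/C and −0.84 (adjusted p = 0.258) in P, neither called. Its arrays with and without piroxicam overlapped at 24 h, with 4.93 on P/C replicate 1 and 4.88 on C replicate 2. AURKB, the kinase of the complex, had 6.11 and 4.51 in P/C, 5.28, 5.77 and 5.64 in P, 6.48, 6.13 and 6.30 in C and 6.41 and 6.13 in untreated cells. All P/C and P arrays of AURKB lay below both untreated arrays, by a narrow margin for P/C replicate 1, and neither the P/C difference of −0.96 (SE 0.41, adjusted p = 0.290) nor the P difference of −0.71 (SE 0.38, adjusted p = 0.359) passed the test. Without P/C replicate 1 the AURKB difference in P/C was −1.76 (adjusted p = 0.0167), which was called, and without replicate 3 it was −0.16 (adjusted p = 0.941). C cells had an AURKB difference of 0.03.

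**Figure D2:**
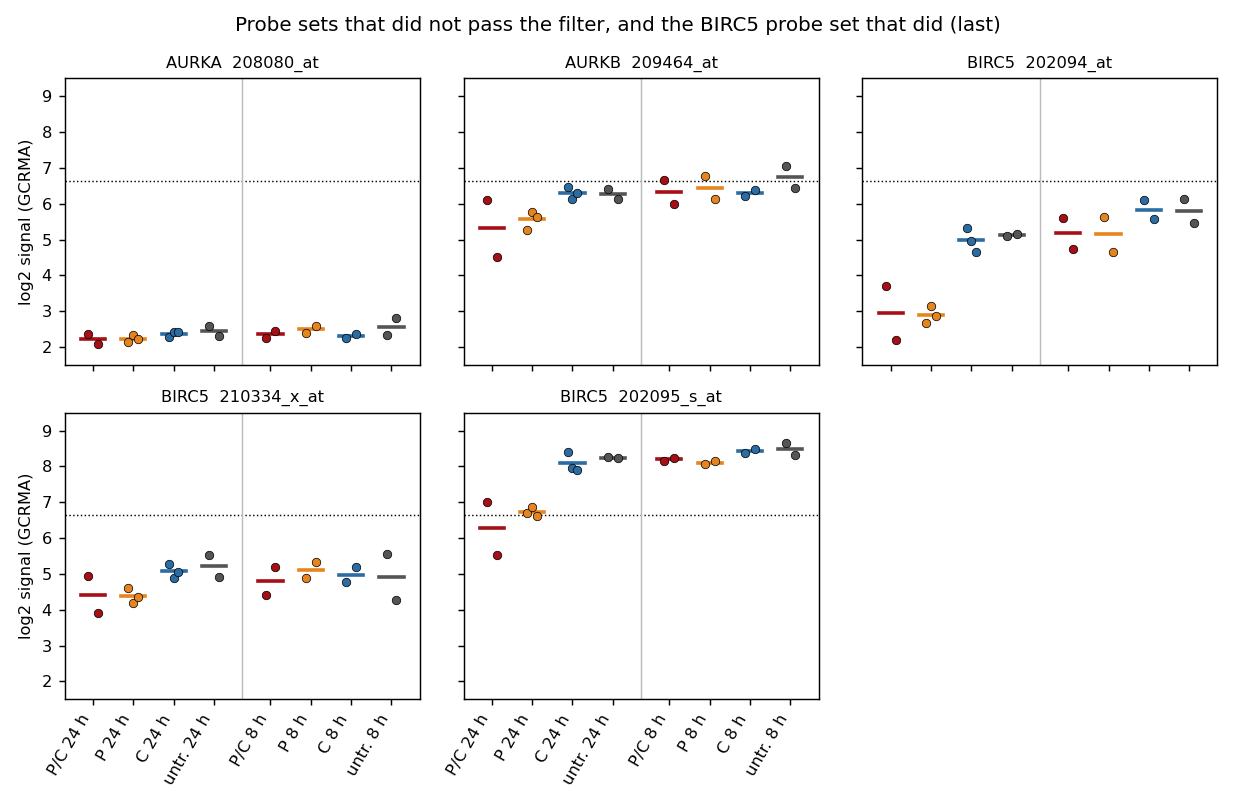
Log2 signal (y axis) of the 4 probe sets that did not pass the filter and of BIRC5 202095_s_at, which did, in every array by treatment and time (x axis, 24 h left of 8 h); points are arrays, short lines group means and the dotted line a signal of 100. AURKA 208080_at is flat between 2.10 and 2.82, and BIRC5 202094_at and 202095_s_at show the P/C and P arrays of 24 h below the C and untreated arrays.

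The central spindle genes fell together in P/C cells. PRC1, the bundler of midzone microtubules, had log2 signals of 7.63 and 6.60 in P/C, 7.70, 7.56 and 7.64 in P, 8.50, 7.00 and 7.71 in C and 8.66 and 8.72 in untreated cells at 24 h. The P arrays lay close together, and the C arrays spread between 7.00 and 8.50. PRC1 changed by −1.57 (SE 0.38, adjusted p = 0.0229) in P/C and by −1.06 (SE 0.35, adjusted p = 0.0330) in P, and C cells had −0.95 (SE 0.35, adjusted p = 0.263). The P call of PRC1 was lost when any of the 5 arrays of that comparison was left out. Its P/C value was −2.08 (adjusted p = 0.00536) without P/C replicate 1 and −1.06 (adjusted p = 0.153) without replicate 3. The C value of PRC1 was −1.33 (adjusted p = 0.0176, called) without C replicate 1 and −0.58 (adjusted p = 0.579) without C replicate 2.

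RACGAP1, the GTPase activating subunit of centralspindlin, had 7.73 and 7.12 in P/C, 7.55, 7.49 and 7.53 in P, 7.91, 8.19 and 7.59 in C and 8.53 and 8.46 in untreated cells at 24 h. All treated arrays lay below the untreated ones. Its log2 fold change was −1.07 (SE 0.25, adjusted p = 0.0212) in P/C, and in P it was −0.97 (SE 0.23, adjusted p = 0.00599), past the threshold on p but short of the limit on the fold. Its P/C value was −1.37 (adjusted p = 0.00539) without P/C replicate 1 and −0.76 (adjusted p = 0.134) without replicate 3. C cells had −0.60.

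ECT2, the exchange factor for RHOA at the cell equator, was the tested gene on which the P/C arrays lay closest together. It had 7.04 and 6.91 in P/C, 7.36, 6.84 and 7.22 in P, 8.10, 7.72 and 7.69 in C and 8.44 and 8.32 in untreated cells at 24 h. ECT2 fell by 1.40 (SE 0.28, adjusted p = 0.0123) in P/C and by 1.24 (SE 0.26, adjusted p = 0.00316) in P on the log2 scale, and its P/C value was −1.47 (adjusted p = 0.0141) without P/C replicate 1 and −1.34 (adjusted p = 0.0644) without replicate 3. In C cells it had −0.54, with all 3 arrays below the untreated arrays.

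**Figure D3:**
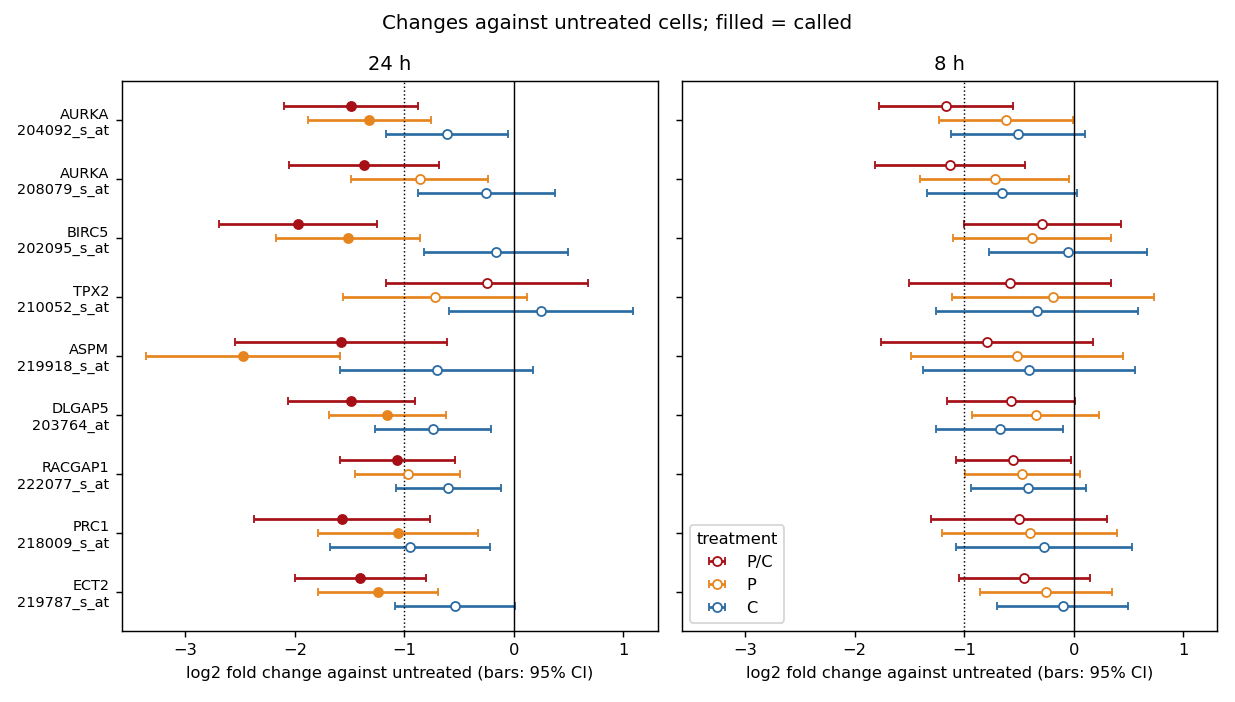
Log2 fold change against untreated cells (x axis) of the 9 tested probe sets (y axis) at 24 h (left) and 8 h (right) for P/C, P and C; bars are 95% confidence intervals, filled points are called and the dotted line marks a log2 fold change of −1. Filled points appear at 24 h for P/C (8) and P (6) and nowhere else.

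Counted over arrays, 8 of the 9 probe sets had both P/C arrays below both untreated arrays (34% of all tested probe sets), and 9 of 9 had all P arrays below them (42.8% of all). So the P/C and P arrays lay below the untreated ones for a large part of all tested probe sets. The share of all tested probe sets called lower in P/C also moved with the array left out, as given below beside the other pathway genes. The P/C count rests on few arrays. It was 9 without P/C replicate 1, 1 without P/C replicate 3, 5 without untreated replicate 1 and 0 without untreated replicate 2. With C replicate 1 and P/C replicate 1 both left out it was 9. The P count was 5 or 6 whichever array was left out.

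**Figure D4:**
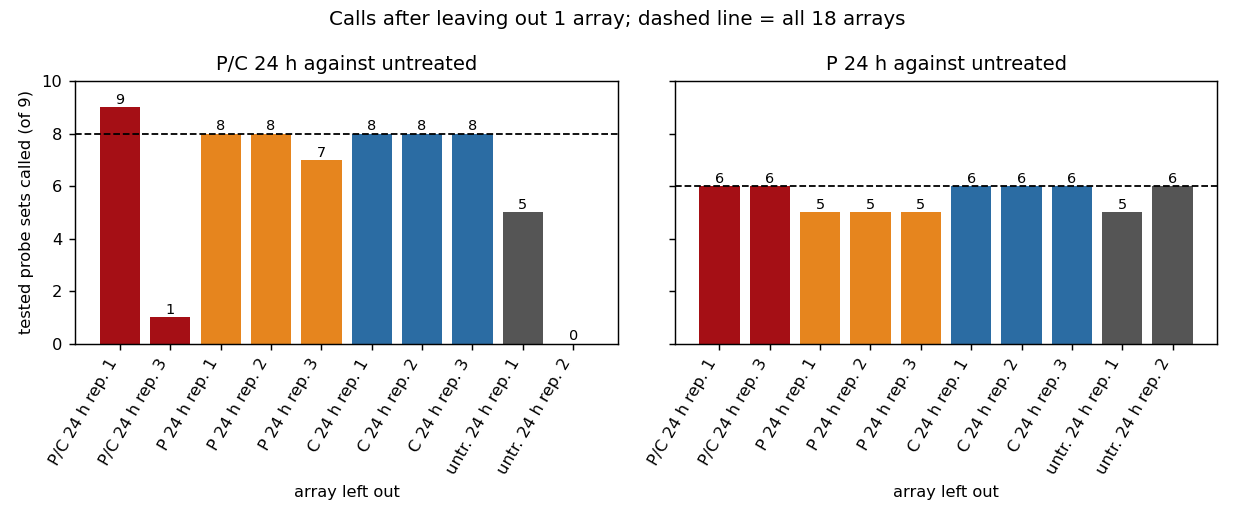
Number of the 9 tested probe sets called (y axis) at 24 h against untreated cells after leaving out the array named on the x axis, for P/C (left) and P (right); the dashed line is the number with all 18 arrays. The P/C count lies between 0 and 9 and the P count between 5 and 6.

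With cisplatin alone for 24 h, 0 of the 9 probe sets were called, as was true of 0% of all tested probe sets, and the smallest adjusted p among the 9 was 0.260. Before adjustment 4 of 9 had p under 0.05, where 13.8% of all did, and 7 of 9 had every C array below both untreated arrays (21.9% of all). TPX2 had every C array above them (9.94% of all). The log2 fold changes of the 9 ran between −0.95 (PRC1) and 0.25 (TPX2). In the median over the 9 probe sets, the C arrays differed from the mean of untreated cells by −0.28, −0.66 and −0.61, so replicate 1 lay nearest to untreated cells. Without that array 1 probe set, PRC1, was called, where 2.65% of all tested probe sets were called lower.

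The combined treatment was next set against each drug alone at 24 h. Against P, 0 of 9 probe sets were called lower or higher in P/C cells, where 0% of all were called lower and 0.164% higher. The differences of 7 were negative (36.6% of all), with a median of −0.16, and ASPM had the largest at 0.89 (SE 0.42, adjusted p = 0.249), higher in P/C. The interval for BIRC5 was −1.12 to 0.20, so a further fall by a factor of 2 lies within it. On P/C replicate 1, TPX2 (9.31) and ASPM (7.93) lay above every P array (at most 8.17 and 6.89). On P/C replicate 3 they had 7.46 and 6.09.

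Against C, 1 of 9 was called lower in P/C cells, BIRC5 with −1.81 (SE 0.31, adjusted p = 0.0439), where 0.0981% of all tested probe sets were called lower. All 9 differences were negative, as were 50.5% over all, with a median of −0.86, and 5 had both P/C arrays below all C arrays (14.3% of all). AURKA had −0.87 (204092_s_at, adjusted p = 0.159) and −1.11 (208079_s_at, adjusted p = 0.136), and ECT2 had −0.86 (adjusted p = 0.156). With each array left out in turn, AURKA lay between −1.25 and −0.50 (204092_s_at) and between −1.74 and −0.49 (208079_s_at). ASPM lay between −1.79 and 0.04. The most negative of these values came without P/C replicate 1, which leaves 1 P/C array. The single call is not a firm one, since leaving out any of 16 of the 18 arrays ended it (adjusted p of 0.0508 to 0.267), the 8 h arrays outside the comparison among them. It held without P/C replicate 1 (−2.55, adjusted p = 7.27e-05) and without P replicate 2 (adjusted p = 0.0487).

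Between the single drugs, P cells had lower signals than C cells for 9 of 9 probe sets (59.3% of all), with a median of −0.70. BIRC5 (−1.35, SE 0.28, adjusted p = 0.00361) and ASPM (−1.77, SE 0.37, adjusted p = 0.00419) were called lower, where 7.65% of all were, and 7 of 9 had every P array below every C array (30.1% of all). This count of 2 did not move when any array was left out. AURKA 204092_s_at (−0.71, adjusted p = 0.0394) and ECT2 (−0.70, adjusted p = 0.0384) passed on p and missed the limit on the fold. PRC1 and DLGAP5 overlapped between P and C cells, with differences of −0.10 and −0.41.

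The departure of the P/C change from the sum of the P and C changes was called for 0 of 9 probe sets and for 0% of all. Its median was 0.41 among the 9 and 0.21 over all tested probe sets. ASPM had the largest departure, 1.60 (SE 0.59, adjusted p = 0.265), where a positive value means that P/C cells fell less than the sum of both drugs. The other 8 lay between −0.30 (BIRC5) and 0.50 (RACGAP1).

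After 8 h 0 of the 9 were called under any treatment by limma, where 0.36% of all tested probe sets were called lower in P/C, 0.294% in P and 0% in C. Before adjustment 3 had p under 0.05 in P/C (11.8% of all), 2 in P (9.58%) and 1 in C (1.14%). All 9 log2 fold changes were negative under each treatment, as were 55.7% over all tested probe sets in P/C, 53.8% in P and 44.5% in C. Their medians were −0.57 in P/C, −0.40 in P and −0.41 in C, beside −0.05, −0.03 and 0.03 over all tested probe sets. In each treatment 7 of 9 had both arrays below both untreated arrays, where 21.9% of all did in P/C, 24.4% in P and 10.7% in C.

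AURKA had the largest differences of the 9 in P/C and P at this time, and DLGAP5 had the largest in C (−0.68, SE 0.27, not called). The AURKA probe set 204092_s_at had 6.37 and 6.87 in P/C, 7.23 and 7.11 in P, 7.45 and 7.10 in C and 7.63 and 7.94 in untreated cells at 8 h (replicates 1 and 3), and P/C cells had −1.16 (SE 0.29, adjusted p = 0.0964). The AURKA probe set 208079_s_at had 8.13 and 8.23 in P/C, 8.72 and 8.46 in P, 8.99 and 8.32 in C and 9.23 and 9.40 in untreated cells, with −1.13 (SE 0.32, adjusted p = 0.163) in P/C. The lowest levels of both were thus in P/C cells, without a call. With either 24 h P/C array left out their fold changes were the same, but whether they passed the test was not. All groups share 1 estimate of the spread. With the replicate number as a block at both times, AURKA 204092_s_at was called in P/C cells (adjusted p = 0.0488). With that block at 8 h alone it was not called. Survivin was not called at 8 h. Its probe set 202095_s_at had 8.16 and 8.24 in P/C, 8.06 and 8.16 in P, 8.38 and 8.48 in C and 8.66 and 8.31 in untreated cells. Its P/C difference was −0.28 (95% confidence interval of −1.01 to 0.44, adjusted p = 0.817). Both P/C and both P arrays lay below both untreated arrays, and a fall by a factor of 2 lies within the interval.

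The change of a treatment effect between 24 h and 8 h was tested as a difference of differences, and 0 of 9 probe sets were called for P/C, P or C (0.0327%, 0.196% and 0% of all were called lower). For P/C the largest was BIRC5, whose effect was lower by 1.69 at 24 h (log2 −1.69, SE 0.48, adjusted p = 0.288). For P it was ASPM, with −1.95 (SE 0.62, adjusted p = 0.228), and BIRC5 had −1.14 (adjusted p = 0.309). The P/C effect on AURKA differed least, by −0.32 and −0.24 for its 2 probe sets. Whether BIRC5 passed the test for P/C and ASPM for P depended on keeping P/C replicate 1, so neither result is firm. Untreated cells at 24 h had lower signals than those at 8 h for 9 of 9 probe sets (48.7% of all), with a median of −0.28 and 0 called (0% of all called lower, smallest adjusted p 0.862).

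The 9 probe sets moved together over the 18 arrays. As a description, with arrays that share treatments and a normalization, the correlations of their 36 pairs ran between 0.517 and 0.934 with a median of 0.836. DLGAP5 (r = 0.943) and AURKA 204092_s_at (r = 0.934) were nearest to the mean of the other members and TPX2 (r = 0.685) was farthest. Without the pairs of TPX2 the lowest correlation was 0.746. In the median over the 9, the arrays differed from untreated cells of their time by −1.06 and −1.86 in P/C, −0.99, −1.25 and −1.14 in P and −0.28, −0.66 and −0.61 in C at 24 h. At 8 h the values were −0.63 and −0.68 in P/C, −0.43 and −0.45 in P and −0.33 and −0.40 in C. By this median the P/C arrays of 24 h differed more from each other than the arrays of any other treated group.

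The other probe sets with the most similar profile over the 18 arrays, by correlation with the mean of the members, were those of NCAPG (r = 0.960), SFPQ (r = 0.948), KIF23 (r = 0.946), PBK (r = 0.945) and CACYBP (r = 0.944). NCAPG is a condensin subunit, KIF23 is the kinesin partner of RACGAP1, PBK is a mitotic kinase, SFPQ is an RNA-binding splicing factor and CACYBP is the calcyclin binding protein. Their log2 fold changes at 24 h were −0.99, −0.66, −1.87, −1.32 and −1.34 in P/C and −1.04, −0.83, −1.47, −1.31 and −1.36 in P, in the same order.

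Of 74 other genes of the same pathway in 5 lists, 63 had a probe set and 27 were tested. In P/C cells 11 of 27 were called lower and 0 higher at 24 h, where 4.22% of all tested probe sets were called lower. In P cells 11 were lower and 0 higher, where 11.4% of all were called lower. The medians were −0.90 in P/C and −0.98 in P. The same shares stand beside the counts by role that follow. The study's list of network genes for P/C already holds CCNA2, BUB1, KIF14, KIF23 and FOXM1, among others. The 5 lists were chosen with earlier results of these data known, so these counts are no independent test either. In C cells 0 were called, and 24 of 27 had a negative value, as did 61.3% of all tested probe sets. Without C replicate 1 the C count was 6, where 2.65% of all tested probe sets were called lower. The largest changes in P/C were those of CCNA2 (−2.90, SE 0.55, adjusted p = 0.0107), the cyclin of S and G2 phase, BUB1 (−2.36, SE 0.46, adjusted p = 0.0108), a checkpoint kinase whose mark on chromatin helps to recruit the passenger complex, and KIF14 (−2.13, SE 0.43, adjusted p = 0.0126), a kinesin that binds PRC1. KIF23 (−1.87, SE 0.34, adjusted p = 0.00906) was the fourth. In P cells KIF14 (−1.66) and KIF23 (−1.47) were called, and CCNA2 (−1.15, adjusted p = 0.0945) and BUB1 (−1.09, adjusted p = 0.0614) were not.

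By role, 4 of the 8 tested genes of the central spindle and cytokinesis list were called lower in P/C and 4 in P, while its 3 septins, SEPTIN9 (−0.95 in P/C, adjusted p = 0.0337), SEPTIN7 (−0.67, adjusted p = 0.0572) and SEPTIN2 (−0.18, adjusted p = 0.629), and TSG101 (0.46, adjusted p = 0.386), which works in abscission, were not. SEPTIN9 missed only the limit on the fold. Of the 6 tested genes of spindle assembly, 1 was called lower in P/C and 3 in P. Of the 7 genes of the anaphase promoting complex and its targets, 4 were called lower in P/C and 2 in P. Of the 4 tested genes of the transcription factor list, 1 was called lower in P/C and 1 in P. FOXM1, which drives G2 and M phase genes, was called in P/C (−1.21, SE 0.35, adjusted p = 0.0400) and had −0.67 (adjusted p = 0.126) in P. The gene called in P was RBBP4 (−1.32, SE 0.30, adjusted p = 0.00484). Only 2 of the 13 genes listed as partners of the Aurora kinases were tested, BUB1 and TACC3, and TACC3 was called in P (−1.04, adjusted p = 0.0490) and had −0.62 in P/C. The P/C count of 11 was 18 without P/C replicate 1 (7.69% of all tested probe sets called lower), 2 without P/C replicate 3 (1.08%), 7 without untreated replicate 1 (3.21%) and 0 without untreated replicate 2 (0.131%). The P count of 11 was 7 without untreated replicate 1 (10.9% of all), 4 without untreated replicate 2 (7.56%) and 7 without P replicate 3 (9.78%).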

How the data were processed

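The 18 HGU133A arrays hold RNA of MSTO-211H cells, and the submitters' labels gave each array its group, time and replicate number. The authors made the deposited log2 signals with GCRMA, which corrects for background and normalizes between arrays, after removing arrays with outlying intensities. No source used here gives its version. The values hold no counts, so the number of arrays limits the precision. The filter of the study's methods (IQR ≥ 0.25, and signal ≥ 100 or log2 6.64 on 25% or more of the arrays) was applied after removing 68 control probe sets, and kept 3057. The linear model of limma 3.58.1 (R 4.3.3) held a mean for every group, 8 in all, and no covariates (10 residual and 5.76 prior degrees of freedom). P values were two-sided and adjusted by the Benjamini-Hochberg method in each of 14 comparisons over all tested probe sets. Intervals are 95% confidence intervals of the fit. Values of probe sets outside the filter come from a fit of all probe sets.

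The text names every probe set of the listed genes, up to 4 pathway genes by the size of their P/C change at 24 h, and the 5 genes of most similar profile. SEPTIN2, SEPTIN7, SEPTIN9, TSG101, FOXM1, RBBP4 and TACC3 were named after their values were seen. Where genes were counted, the probe set of highest mean stood for its gene. The members and lists were chosen with earlier results of these data known. At 8 h all 12 pairs of arrays with the same replicate number deviated together (r = 0.20 to 0.66, all over 0.1), while at 24 h 5 of 12 did (−0.22 to 0.39). Each 8 h group holds 2 arrays, whose deviations mirror each other. Every r at 8 h thus occurs once for each replicate number, so the 12 are not independent and do not settle whether the numbers pair the arrays. Other filters, normalizations, array weights, a replicate block and leaving out each array were tried. The fit was tested on simulated data. Promoter windows are those of RefSeq (GRCh38.p14), searched on both strands. A planned comparison of the AURKA and AURKB proteins was not run.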

Additional observations from a re-analysis of the deposited data

How the results depend on the processing

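With array weights 1 member probe set was called in C at 24 h and 4 in P/C. With only the arrays of the comparison the P/C count at 24 h was 0. With the replicate block at both times it was 5, and 1 probe set, AURKA 204092_s_at, was called in P/C at 8 h. That call was absent with the block at 8 h alone. Blocking changed no other count of members by over 1.5 times. The comparison of P/C with C gave 0 calls without the filter, with the signal filter alone, with only its own arrays and with array weights, and that of P with C gave 4 without the limit on the fold. With C replicate 1 and P/C replicate 1 of 24 h both left out, a setting chosen with earlier results of these data known, the counts were 1 for C at 24 h, 2 for P/C at 8 h, 1 for P/C with P, 5 for P/C with C, and 2 and 1 for the change with time of the P and P/C effects. That setting leaves 1 P/C array at 24 h, and the shares of all tested probe sets called with it are not given beside these counts. The cause of these shifts was not tested.

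Leaving out each array in turn gave 0 to 9 calls for P/C and 5 to 6 for P at 24 h, 0 to 1 for C, 0 to 2 for P/C at 8 h, 0 to 2 for P/C with P, 0 to 6 for P/C with C, 2 to 2 for P with C, 0 to 1 for the departure from the sum and for the change with time of P and of P/C, and 0 to 0 for the others.

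Signs turned where the value was small or 1 array decided it. Leaving out each array in turn, the log2 fold change in C at 24 h lay between −0.224 and 0.0605 for AURKA 208080_at, between −0.11 and 0.169 for AURKB, between −0.325 and 0.0074 for BIRC5 202094_at and between −0.462 and 0.15 for BIRC5 210334_x_at. With C replicate 1 and P/C replicate 1 left out, AURKB had −0.0583 in C. With the replicate block BIRC5 202094_at had 0.046 and BIRC5 202095_s_at 0.015 in C. In P/C at 24 h TPX2 lay between −1.17 and 0.68 when an array was left out, and ASPM in P/C against C between −1.79 and 0.0416. Of 29 alternatives (28 for AURKA 204092_s_at, 26 for BIRC5 202094_at), the P call at 24 h was lost in 8 for PRC1, 1 for DLGAP5 and 1 for BIRC5 202094_at, and the P/C call in 13 for ASPM, 8 for BIRC5 202094_at, 6 for RACGAP1, 6 for PRC1, 5 for AURKA 208079_s_at, 3 each for AURKA 204092_s_at, DLGAP5 and ECT2, and 2 for BIRC5 202095_s_at, whose call against C was lost in 20.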
